A study of Mus musculus with 6 samples.

Results

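The 10 mouse genes Saa1, Saa2, Saa3, Lcn2, Hp, Orm1, Orm2, Apcs, Itih4 and Lbp, which encode proteins that the liver releases into plasma in inflammation, were examined library by library among the 56884 mouse genes counted in an orthotopic xenograft model of HCC. They were chosen by name after their counts in all 6 libraries had been read, so their levels and fold changes are a description and carry no test. Male athymic BALB/c (nu/nu) mice, labelled WT and 6 weeks of age, all carried cells of the human HCC line QGY-7703 in the liver. The siControl group of 3 libraries received AAV8-siControl through the tail vein 1 week after implantation, and the siAATF group of 3 libraries received AAV8-siAATF in the same way. Tissue labelled liver was taken 3 weeks later, and the labels do not say which part of the liver, or how much tumor, went into each library. The siRNA was directed against mouse Aatf and driven by the thyroxine-binding globulin (TBG) promoter, which is active in hepatocytes. Athymic mice lack mature T cells, while neutrophils and macrophages are retained. The labels do not say whether the replicates of a group came from separate animals, so spread and p-values refer to these libraries.

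In the acute-phase response, cytokines released at a site of injury or infection, above all interleukin 6, interleukin 1 and tumor necrosis factor, reach the liver and change what hepatocytes secrete. Interleukin 6 acts through STAT3, and interleukin 1 and tumor necrosis factor act through NF-kB and C/EBP factors. Positive acute-phase proteins such as serum amyloid A and haptoglobin rise in plasma, while negative ones such as albumin and transthyretin fall. Some of these genes are also transcribed outside hepatocytes, among them Lcn2 in neutrophils and epithelia and Saa3 in macrophages and other stromal cells.

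The libraries differed in the species they held. Mouse genes took 213022 to 913584 counts in siControl, 0.778% to 1.93% of all gene counts, and 11835898 to 42563694 counts in siAATF, 97.9% to 99.0% of all gene counts (1.46% ± 0.606 against 98.6% ± 0.625, SD, n = 3, p = 0.1 by a two-sided exact permutation test, which with 3 against 3 can go no lower). Levels are mouse counts scaled to the library's mouse total and by TMM factors (TMM-normalized CPM), and at these depths a count of 0 allows a level of up to 1.67 to 7.23 in siControl and 0.103 to 0.605 in siAATF, counting error only. Mouse Aatf, the target, was at 9.62, 2.41 and 12.8 TMM-normalized CPM in siControl replicates 1 to 3 and at 13.2, 22.0 and 18.9 in siAATF replicates 1 to 3. As CPM of the mouse counts without TMM factors it was at 17.1, 4.69 and 25.2 in siControl and at 9.02, 9.21 and 9.72 in siAATF. Its direction thus depended on the scaling (log2 fold change 0.93 with TMM, adjusted p = 0.152, and -0.92 with library size alone), the counts do not check the silencing, and directions below refer to the labels. Summed TMM-normalized CPM of 10 hepatocyte markers, the defining genes of the labelled tissue, was 395 to 1302 in siControl and 9449 to 19895 in siAATF, and all 10 were called higher, where 17.6% of all genes tested were. In bulk tissue, fewer hepatocytes and less RNA per hepatocyte cannot be told apart, and neither can a lower mouse share and the siControl label. Scaling matters at this imbalance. The median log2 fold change of the 18018 mouse genes tested was 0.50 with TMM and -1.30 with library size alone.

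The 10 members together were at 11791, 7637 and 7580 TMM-normalized CPM in siControl replicates 1 to 3 and at 8413, 18316 and 229057 in siAATF replicates 1 to 3. The siControl libraries lay close together, siAATF replicate 1 lay within their range, and siAATF replicate 3 lay far above every other library. The members held 2.09%, 1.49% and 1.49% of the mouse counts in siControl, 0.573% and 0.767% in siAATF replicates 1 and 2, and 11.8% in siAATF replicate 3, with 95% Wilson confidence intervals no wider than 1.44% to 1.54%. In 9 of 10 members siAATF replicate 3 was the highest of all 6 libraries, and in 10 of 10 siAATF replicate 1 was the lowest of the siAATF libraries. All 10 had at least 35 counts in every library, so none passed the filter on low counts through 1 group alone.

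**Figure D1:**
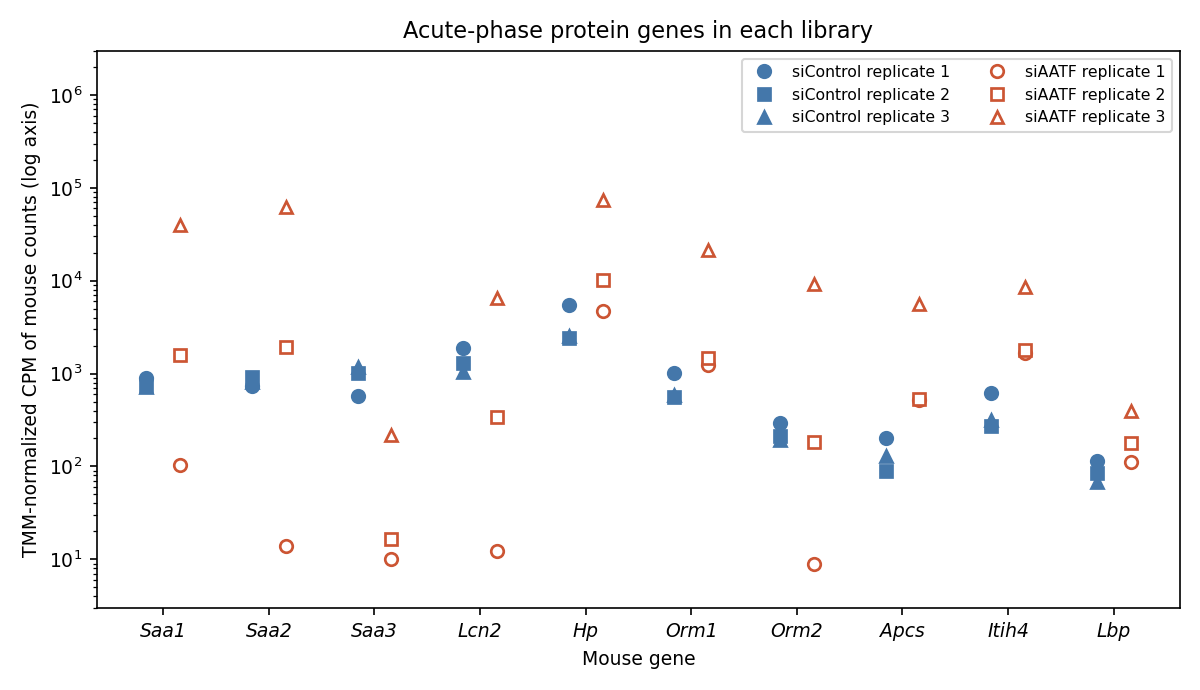
TMM-normalized CPM of the mouse counts (log axis) for each acute-phase member in each of the 3 siControl libraries (filled) and the 3 siAATF libraries (open), 1 point per library. The siControl points of a gene lie within 2.27-fold of each other, while Saa2 runs from 14.0 to 62695 across the siAATF libraries and Saa3 alone has all siAATF points below all siControl points.

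Saa1 and Saa2, the acute-phase serum amyloid A genes that are made mainly in hepatocytes and carried on high-density lipoprotein, spread widely in siAATF. Saa1 (ENSMUSG00000074115, GRCm39 chromosome 7, 46389921 to 46392404, minus strand) was at 898, 740 and 723 TMM-normalized CPM in siControl and at 104, 1567 and 39684 in siAATF replicates 1 to 3. Saa2 (ENSMUSG00000057465, chromosome 7, 46401214 to 46403737, plus strand) was at 727, 918 and 819 in siControl and at 14.0, 1952 and 62695 in siAATF. For both genes siAATF replicate 1 fell below every siControl library and replicates 2 and 3 above, so the groups overlapped on both sides. The fitted log2 fold change was 4.13 (SE 1.54) for Saa1 and 4.71 (SE 1.86) for Saa2, and without siAATF replicate 3 it was 0.14 and 0.30.

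Saa3 (ENSMUSG00000040026, chromosome 7, 46361422 to 46365124, minus strand), a family member of macrophages and stromal cells in the same stretch of the chromosome, went the other way. It was at 580, 1022 and 1190 TMM-normalized CPM in siControl and at 10.04, 16.7 and 220 in siAATF. No siAATF library reached any siControl library, and siAATF replicate 3 was again the highest of its group. The fitted log2 fold change was -3.50 (SE 1.00), and it was -6.09 without siAATF replicate 3.

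The make-up of the serum amyloid A counts shows the same contrast without any scaling between libraries. Saa3 took 26.3%, 38.1% and 43.6% of the summed Saa1, Saa2 and Saa3 counts in siControl and 7.85%, 0.473% and 0.214% in siAATF. Saa2 took 44.7%, 55.4% and 53.1% of the Saa1 and Saa2 counts in siControl, 55.5% and 61.2% in siAATF replicates 2 and 3, and 11.9% (95% Wilson confidence interval 10.9% to 13.04%) in siAATF replicate 1. That library thus held far less Saa2 than Saa1, while in the others Saa2 took between 44.7% and 61.2%. Of the 2824 distinct 100-base stretches in all annotated Saa2 transcripts, 301 (10.7%) also occur in Saa1 transcripts and 0% in Saa3 transcripts. The counted length of Saa2 is only 652 bases, so the shared part of the counted sequence may be larger than 10.7%. The authors discarded reads that mapped to several places. The split between Saa1 and Saa2 is therefore uncertain. Reads dropped in stretches shared by Saa1 and Saa2 lower the counts of both and not those of Saa3. The Saa3 shares are raised by this in every library, to an extent that was not tested.

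**Figure D2:**
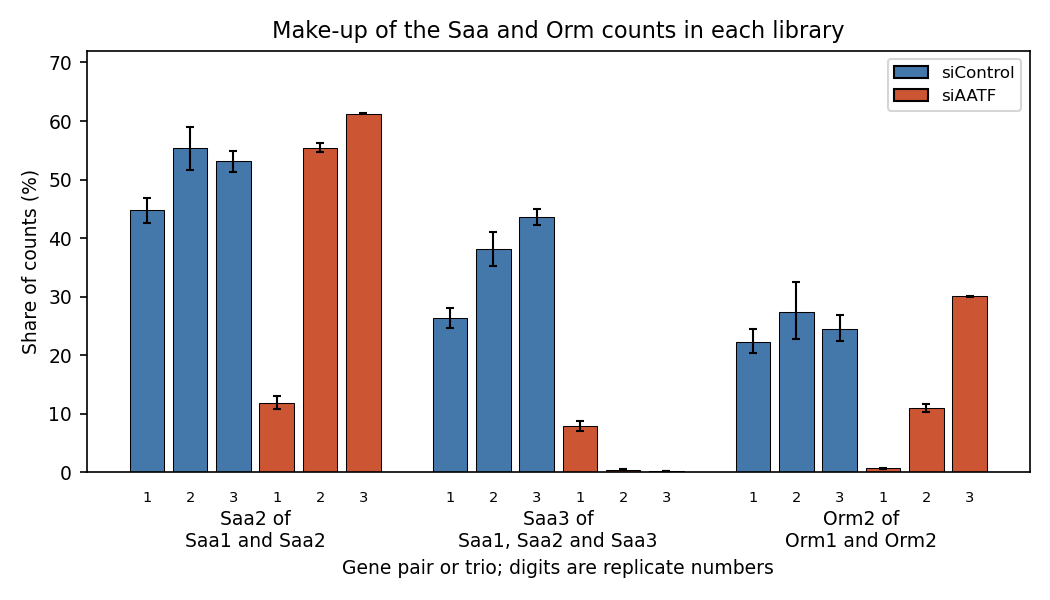
Share of counts (%) taken by Saa2 within Saa1 and Saa2, by Saa3 within Saa1 to Saa3 and by Orm2 within Orm1 and Orm2, 1 bar per library with its 95% Wilson confidence interval, which covers counting error only. Saa3 takes 26.3% or more in siControl and 7.85% or less in siAATF, and siAATF replicate 1 stands out by its low Saa2 share of 11.9% and Orm2 share of 0.702%.

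The promoters of the serum amyloid A genes and of Orm2 are shown because Saa1, Saa2 and Orm2 were among the genes that spread most within siAATF, whereas Saa3, on the same chromosome as the first pair, was low in every siAATF library. The RefSeq promoter table (build GRCm38.p6) held 7 of the 10 members, without Orm1, Hp and Lbp. Each line gives the 200 bases from 250 to 51 bases before the start site, read 5′ to 3′ on the strand of the gene, with matches to the C/EBP-type motif TTNNGNAA on either strand in capitals. Exact matches placed them in GRCm39 at chr7:46392455-46392654 (minus strand) for Saa1, chr7:46401007-46401206 (plus strand) for Saa2, chr7:46365151-46365350 (minus strand) for Saa3 and chr4:63280436-63280635 (plus strand) for Orm2.
Saa1: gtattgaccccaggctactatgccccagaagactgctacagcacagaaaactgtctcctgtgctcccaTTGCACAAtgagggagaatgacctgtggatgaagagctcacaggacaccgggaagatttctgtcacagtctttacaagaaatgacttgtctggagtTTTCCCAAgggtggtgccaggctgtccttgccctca
Saa2: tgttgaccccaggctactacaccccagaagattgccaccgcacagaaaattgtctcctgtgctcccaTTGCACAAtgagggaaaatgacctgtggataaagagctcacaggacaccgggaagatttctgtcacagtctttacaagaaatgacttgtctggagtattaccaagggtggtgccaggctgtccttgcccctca
Saa3: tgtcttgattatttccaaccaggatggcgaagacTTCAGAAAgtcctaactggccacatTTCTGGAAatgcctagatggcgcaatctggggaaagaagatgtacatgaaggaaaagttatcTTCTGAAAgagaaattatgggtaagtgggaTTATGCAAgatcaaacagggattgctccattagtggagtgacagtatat
Orm2: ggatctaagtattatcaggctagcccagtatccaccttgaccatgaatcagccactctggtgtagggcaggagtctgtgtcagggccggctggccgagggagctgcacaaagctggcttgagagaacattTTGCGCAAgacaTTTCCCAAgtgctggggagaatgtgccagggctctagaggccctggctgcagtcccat

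The Saa1 and Saa2 windows were 93.5% identical over their alignment, whereas Saa1 and Saa3 were 52.3% identical, close to the 52.5% of the unrelated pair Saa1 and Orm2. The C/EBP-type motif was found in 5 of the 7 member promoters (Saa1, Saa2, Saa3, Lcn2 and Orm2) and in 32.3% of the 32851 promoters in the table. Saa1 held 2 matches, at 182 and 86 bases before the start. Saa2 held 1, at 183 bases, and Saa3 held 4, at 216, 191, 129 and 99 bases. The STAT-type motif TTCNNNGAA was found in 1 of 7 (Apcs) and in 5.76% of all promoters. These are matches of letters in a short window on both strands and say nothing of binding.

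Lcn2 (ENSMUSG00000026822, chromosome 2, 32274645 to 32277809, minus strand) encodes lipocalin 2, which binds bacterial siderophores and so withholds iron. It was at 1886, 1311 and 1028 TMM-normalized CPM in siControl and at 12.3, 340 and 6552 in siAATF. Replicates 1 and 2 of siAATF lay below every siControl library and replicate 3 above. Its fitted log2 fold change of 0.71 (SE 1.31) became -2.94 without siAATF replicate 3, -1.17 with library size alone and -2.06 with limma-voom, so Lcn2 had no stable direction. In siAATF it made up 0.146%, 1.85% and 2.86% of the member counts, against 16.0%, 17.2% and 13.6% in siControl.

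Many markers of other cells, among them those that also transcribe Lcn2 and Saa3, were lower in siAATF. Summed TMM-normalized CPM of 11 neutrophil markers was 93.0, 1897 and 1411 in siControl and 3.07, 2.62 and 143 in siAATF, where 5 of 11 fell, none rose and Elane was at 0 in all siControl libraries. Summed levels of 11 macrophage markers ranged from 1410 to 4613 in siControl and from 159 to 264 in siAATF, where 7 of 11 fell and none rose. The other 4, Clec4f, Timd4, Marco and Vsig4, had log2 fold changes of 0.60 to 1.95 that did not pass and, except for Timd4, turned below 0 with library size alone, and Clec4f (2.41 to 44.1 in siControl, 45.4 to 69.5 in siAATF) was called higher without siAATF replicate 3 (adjusted p = 0.0275, 6.79e-05 to 0.770 over its alternatives); they are named after their values were seen. Among the siControl libraries, Lcn2 was highest and Saa3 lowest in replicate 1, where the neutrophil sum was lowest (93.0) and the macrophage sum highest (4613). Within siAATF, Lcn2, Saa3 and all 11 neutrophil markers were highest in replicate 3. Fibroblast markers (10 genes, 8722 to 12789 against 346 to 540, 9 lower) and endothelial markers (7 genes, 312 to 431 against 62.8 to 179, 3 lower) had lower sums in siAATF too. Not all endothelial markers went that way. Stab2 (14.5 to 28.9 in siControl, 30.3 to 45.7 in siAATF) and Tek, named after their values were seen, had log2 fold changes of 0.85 and 0.08. Neither passed, and both turned below 0 with library size alone. The sum of 5 biliary markers (1139 to 2306 against 74.8 to 77.9, 2 lower) was nearly all Spp1 in siControl (1111 to 2268) and in smaller part in siAATF (36.3 to 43.1). Without Spp1, looked at after its values were seen, it was 16.9 to 38.5 in siControl and 31.6 to 41.4 in siAATF. Of 4 adipocyte markers 1 was tested and did not pass. Over all genes tested, 14.4% were called lower. The part of these cells in the levels of Lcn2 and Saa3 was not tested.

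Hp, Orm1 and Orm2 encode haptoglobin, which binds free hemoglobin, and the orosomucoids, lipid-binding carriers of plasma. Hp (ENSMUSG00000031722, chromosome 8, 110301760 to 110305804, minus strand) was at 5467, 2422 and 2533 TMM-normalized CPM in siControl and at 4726, 10276 and 74918 in siAATF. Orm1 (ENSMUSG00000039196, chromosome 4, 63262797 to 63266400, plus strand) was at 1011, 564 and 584 in siControl and at 1250, 1462 and 21279 in siAATF. Orm1 was above every siControl library in all siAATF libraries, whereas Hp in siAATF replicate 1 lay below the highest siControl library. Fitted log2 fold changes were 3.11 (SE 1.18) for Hp and 3.47 (SE 1.11) for Orm1, and 1.19 and 0.98 without siAATF replicate 3.

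Orm2 (ENSMUSG00000061540, chromosome 4, 63280686 to 63284115, plus strand) behaved unlike Orm1. It was at 291, 212 and 190 TMM-normalized CPM in siControl and at 8.83, 181 and 9155 in siAATF, so that replicates 1 and 2 of siAATF were below every siControl library. Its fitted log2 fold change of 3.75 (SE 1.59) turned to -1.23 without siAATF replicate 3. Orm2 made up 22.4%, 27.3% and 24.6% of the Orm1 and Orm2 counts in siControl and 0.702%, 11.03% and 30.1% in siAATF. As 7.99% of the distinct 100-base stretches of Orm2 also occur in Orm1, the split is uncertain to that extent.

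Apcs, Itih4 and Lbp encode serum amyloid P component, a pentraxin; an inter-alpha-trypsin inhibitor heavy chain; and lipopolysaccharide-binding protein, which hands bacterial lipopolysaccharide to CD14. Apcs (ENSMUSG00000026542, chromosome 1, 172721528 to 172722608, minus strand) was at 203, 89.2 and 131 TMM-normalized CPM in siControl and at 517, 529 and 5642 in siAATF. Itih4 (ENSMUSG00000021922, chromosome 14, 30608433 to 30624310, plus strand) was at 612, 275 and 313 in siControl and at 1661, 1813 and 8519 in siAATF. Both were higher in each siAATF library than in any siControl library, and replicates 1 and 2 of siAATF were nearly equal. Their fitted log2 fold changes were 3.97 (SE 0.97) and 3.32 (SE 0.82), and 1.96 and 2.20 without siAATF replicate 3. Lbp (ENSMUSG00000016024, chromosome 2, 158148413 to 158174772, plus strand) varied least, with 115, 84.3 and 67.9 in siControl and 111, 180 and 392 in siAATF. Its fitted log2 fold change was 1.35 (SE 0.51), 0.77 without siAATF replicate 3 and -0.51 with library size alone.

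The median log2 fold change of the 10 members was 3.39, against 0.50 for all genes tested, and without siAATF replicate 3 it was 0.53, against 0.55 for all genes. With an adjusted p under 0.05 in edgeR's quasi-likelihood test, 4 of 10 members would be called (Orm1, Apcs and Itih4 higher, Saa3 lower), where 32% of all genes tested were called, 17.6% higher and 14.4% lower. The same 4 members had groups that did not overlap, where 52.7% of all genes did not overlap. Nothing is read from these counts, since the choice of members used the same columns.

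Most members spread widely within the siAATF group. Among 3552 genes at 10 counts or more in all libraries, the highest siAATF library exceeded the lowest by a median of 1.98-fold, and 32 genes (0.901%) reached 10-fold. Of those 32, 8 were members, all but Itih4 (5.13-fold) and Lbp (3.53-fold). Saa2 ranked 1 (4465-fold), Orm2 ranked 2 (1037-fold), Lcn2 ranked 3 (534-fold) and Saa1 ranked 5 (382-fold), followed at a distance by Saa3 (21.9-fold), Orm1 (17.0-fold), Hp (15.9-fold) and Apcs (10.9-fold). The other genes among the 8 widest were Ly6d, Mt1, Cxcl14 and Fgl1. In siControl the members had a median of 1.81-fold between the highest and the lowest library, against 1.497-fold for all these genes. The counts used here are those that chose the members, so the ranks are a description, and 37.4% of these genes had their highest siAATF value in replicate 3.

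**Figure D3:**
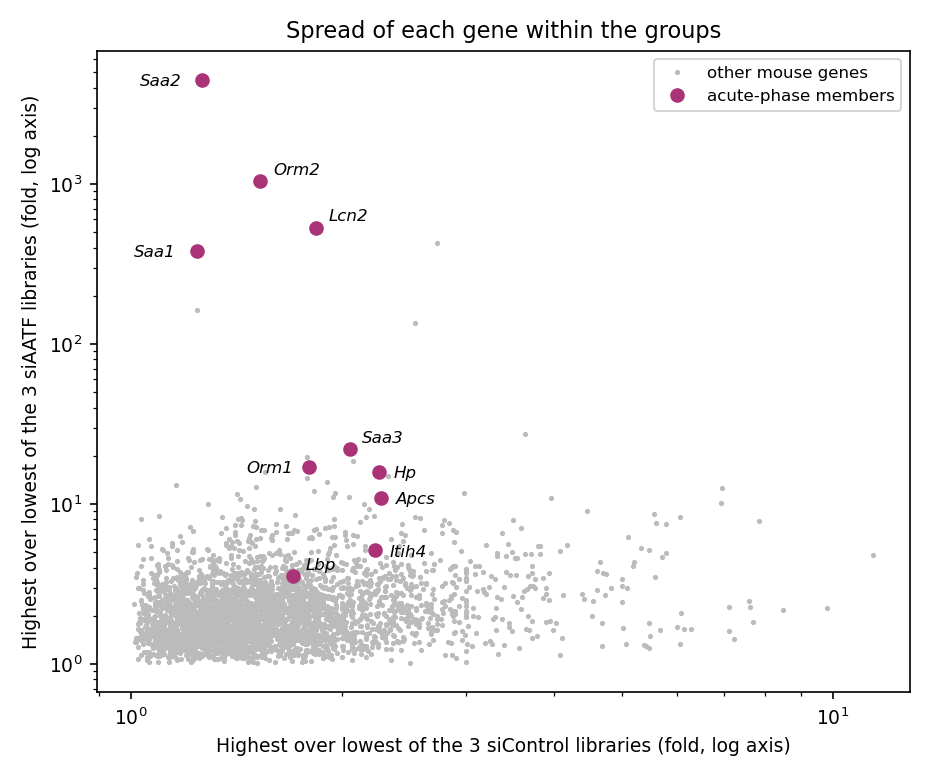
Highest over lowest TMM-normalized CPM within siControl (x axis) and within siAATF (y axis), both as fold on log axes, for 3552 mouse genes at 10 counts or more in all libraries, with the 10 members enlarged and named. Saa2, Orm2, Lcn2 and Saa1 lie at 382-fold or more within siAATF but at 1.83-fold or less within siControl.

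Each library can be read on its own when members are counted against Alb, the albumin gene and main negative acute-phase gene of hepatocytes. Per 100 Alb counts, Hp had 221, 229 and 224 in siControl replicates 1 to 3, whereas in siAATF it had 11.2, 82.3 and 228. Hp thus stood in about the same proportion to Alb in the 3 siControl libraries and in siAATF replicate 3. This held for Alb alone, as per 100 counts of the summed hepatocyte markers Hp in replicate 3 was lower (400 against 420 to 613 in siControl), and per 100 counts of the summed negative acute-phase genes it was higher (51.8 against 30.1 to 34.2). On the same scale, Saa1 had 36.4, 70.1 and 63.9 in siControl replicates 1 to 3, and in siAATF it had 0.246, 12.5 and 121. Itih4 had 24.8, 26.0 and 27.6 in siControl and 3.93, 14.5 and 25.9 in siAATF. All members together had 477, 724 and 670 in the siControl libraries and 19.9, 147 and 696 in the siAATF libraries, so that siAATF replicate 3 was within the siControl range and replicates 1 and 2 were below it. By gene and against Alb, replicate 3 was within the siControl values for Hp and Itih4 and above them for Saa1, Saa2 (191 against at most 87.0), Orm1 (64.7 against at most 53.4), Orm2 (27.8 against at most 20.1) and Apcs (17.2 against at most 11.6).

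Saa3, Lcn2 and Lbp were low against Alb in all of siAATF. Saa3 had 23.5 to 105 counts per 100 Alb counts in siControl and 0.0237, 0.134 and 0.668 in siAATF. Lcn2 had 76.4 to 124 in siControl and 0.0290, 2.72 and 19.9 in siAATF. Lbp had 4.67 to 7.99 in siControl and 0.262, 1.44 and 1.19 in siAATF. These 3 were below every siControl library in all siAATF libraries, replicate 3 included. Against the summed hepatocyte markers in place of Alb, all members together had 906 to 1932 counts per 100 in siControl and 42.3, 194 and 1222 in siAATF, so that replicate 3 was again within the siControl range. By gene on that scale, replicate 3 was above siControl for Saa1, Saa2 and Apcs, within it for Orm1 (114 against 77.6 to 143) and Orm2 (48.8 against 22.4 to 53.7), and below it for Hp and Itih4 (45.4 against at least 47.0). Against the summed negative acute-phase genes they had 66.6, 108 and 90.1 in siControl and 8.08, 42.1 and 158 in siAATF, and there replicate 3 was above every siControl library, as it was for each member but Saa3, Lcn2 and Lbp, which were below siControl on all 3 scales.

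**Figure D4:**
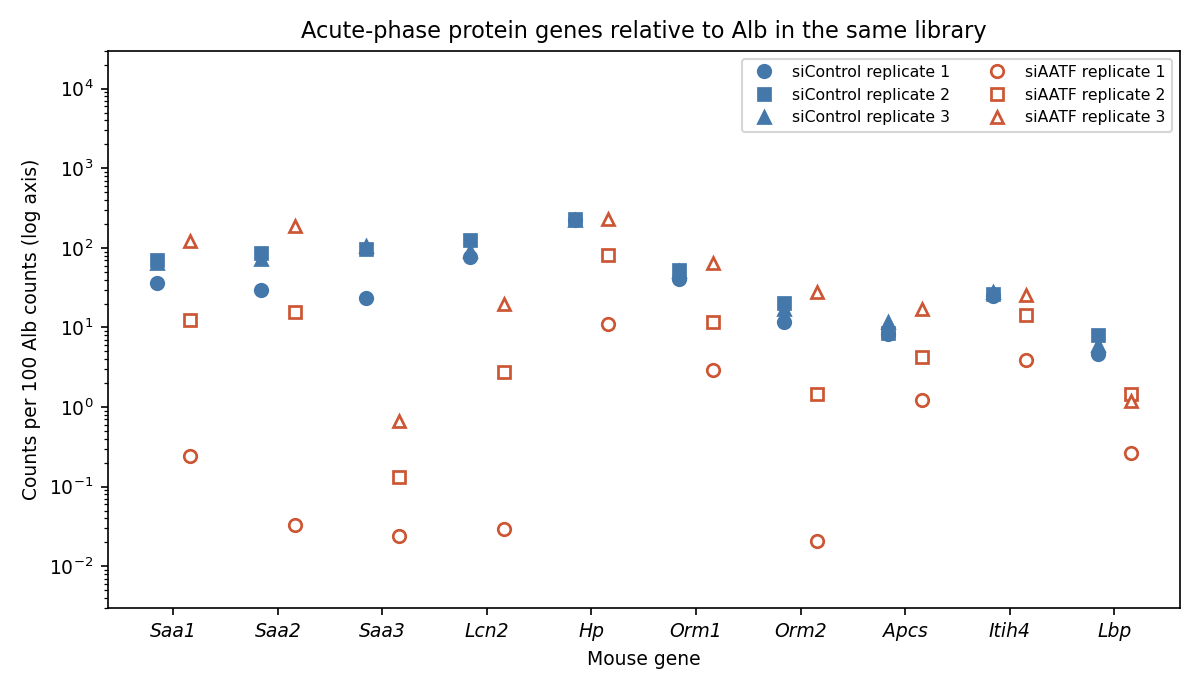
Counts of each member per 100 Alb counts of the same library (log axis), with siControl filled and siAATF open, 1 point per library. For Hp the siControl points at 221 to 229 and siAATF replicate 3 at 228 coincide, while all siAATF points of Saa3, Lcn2 and Lbp lie below their siControl points.

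Per kilobase of annotated gene length, Hp led the members in all siControl libraries (1801 to 4065 TMM-normalized CPM per kb). Lcn2, Saa1, Saa2 and Orm1 followed (728 to 2062). The order of Lcn2, Saa1 and Saa2 changed from library to library, so these neighbours did not differ beyond their spread. Lcn2 and Saa1 stood above Orm1 in all 3 siControl libraries, although their ranges overlapped with that of Orm1 (728 to 1304), and Saa2 stood above it in 2 of 3. Apcs (91.8 to 209), Itih4 (77.8 to 173) and Lbp (20.6 to 35.0) were the lowest in that order in each siControl library, although the ranges of Apcs and Itih4 overlapped. In siAATF replicate 1 Hp (3514) and Orm1 (1613) led and Saa3 was last (3.85). In siAATF replicate 3 Saa2 (96158) and Saa1 (65163) stood above Hp (55701), and Saa3 (84.4) was again last.

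Genes whose profile over the 6 libraries was nearest to a member were found by the root-mean-square difference of centred log2(CPM + 1) values over the 9466 genes with a mean of at least 50 counts. Nearest to Saa1 were the metallothionein Mt1 (0.48), Orm2 (0.68) and Mt2 (0.75). Nearest to Hp were Hpx (0.29), which encodes the heme-binding protein hemopexin, Orm1 (0.34) and Fgl1 (0.36). Saa3 had other neighbours, Il1rn (0.58), Csf3r (0.59) and Cd14 (0.62), which are genes of myeloid cells and their signals. Lcn2 was nearest to Ly6d (0.95), Cxcl14 (1.08) and Orm2 (1.22), all farther away than any neighbour of the others.

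The rest of the acute-phase system was read from the same fit, from 79 genes in 6 lists, of which 78 were tested. Adjusted over all 18018 genes tested, 31 were called higher in siAATF (17.6% of all genes were) and 19 lower (14.4% of all genes were). With library size alone the numbers were 11 and 32, without siControl replicate 3 they were 15 and 14, and without siControl replicate 2 they were 19 and 18.

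Of 22 further positive acute-phase genes, 13 were called higher and 2 lower (median log2 fold change 2.78). With library size alone the median was 0.998, and 1 was called higher and 4 lower. Without siAATF replicate 3 the calls were 9 higher and 3 lower. Orm3, the third orosomucoid gene, was at 6.41, 12.05 and 8.35 TMM-normalized CPM in siControl and at 9.94, 76.0 and 350 in siAATF (log2 fold change 4.11, SE 1.02, adjusted p = 0.00832, 5.60e-13 to 0.0968 over its alternatives). Fgl1, a fibrinogen-like protein of hepatocytes, had a log2 fold change of 3.47 (SE 1.08, adjusted p = 0.0273), and its adjusted p was 0.0865 without siAATF replicate 3 and 2.32e-05 to 0.147 over its alternatives. Hamp, which encodes the iron hormone hepcidin, was at 334, 81.9 and 57.9 in siControl and at 375, 1565 and 2817 in siAATF (log2 fold change 3.32, SE 0.87, adjusted p = 0.0112, 2.44e-06 to 0.113 over its alternatives). C4b, a complement gene, rose from 448, 219 and 273 to 1561, 3070 and 4188 (log2 fold change 3.22, SE 0.66, adjusted p = 0.00269, 0.000817 without siAATF replicate 3 and 2.47e-10 to 0.0867 over its alternatives).

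The 2 genes listed as positive that fell were Il1rn and A2m. Il1rn, the interleukin 1 receptor antagonist, was at 58.5, 106 and 86.8 TMM-normalized CPM in siControl and at 1.41, 0.605 and 12.5 in siAATF (log2 fold change -4.04, SE 0.83, adjusted p = 0.00270). A2m, a protease inhibitor, had a log2 fold change of -2.89 (SE 0.91, adjusted p = 0.0281, 2.60e-07 to 0.262 over its alternatives). Like Saa3, Il1rn had its highest siAATF value in replicate 3 and stayed below siControl there. Hpx and Mt1, the nearest neighbours of Hp and Saa1, did not pass (adjusted p = 0.0675 and 0.0701).

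The negative acute-phase genes, those that inflammation lowers, also stood higher in siAATF, with 10 of 11 called higher and none lower (median log2 fold change 4.06 with TMM and 2.22 with library size alone). Alb was at 2470, 1056 and 1131 TMM-normalized CPM in siControl and at 42305, 12491 and 32892 in siAATF (log2 fold change 4.23, SE 1.02, adjusted p = 0.00687, up to 0.0828 over its alternatives). Ttr, the transthyretin gene, had a log2 fold change of 4.91 (SE 0.97, adjusted p = 0.00205), and Igf1 one of 4.08 (SE 0.61, adjusted p = 0.000339). Within siAATF, 4 of the 11, Alb, Ttr, Rbp4 and F12, were highest in replicate 1 and the other 7 in replicate 3. Trf, the transferrin gene, did not pass (log2 fold change 1.87, SE 0.96, adjusted p = 0.159). Without siAATF replicate 3 the number called higher was again 10.

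Of the inducing cytokines, 7 of 8 tested were called lower in siAATF and none higher, and 7 again without siAATF replicate 3. Among these 7, Il6, Tnf, Osm, Lif and Il11 passed the filter on total counts only with their siControl counts. Their calls are therefore not read as falls, and their counts are a description. Il1b and Clcf1 (log2 fold change -2.24, SE 0.77, adjusted p = 0.0413, up to 0.166 over its alternatives) would pass the filter on their siAATF counts too. Il6 counts numbered 3, 0 and 9 in the siControl libraries and 0 in each siAATF library, a level of up to 0.103 to 0.605 TMM-normalized CPM at these depths. Tnf counts numbered 14, 4 and 24 in the siControl libraries and 0, 0 and 2 in the siAATF libraries, although siAATF held many more mouse counts. Il1b was at 32.1, 429 and 382 TMM-normalized CPM in siControl and at 2.48, 0.807 and 5.77 in siAATF (log2 fold change -6.46, SE 0.98, adjusted p = 0.000368). Osm, a relative of interleukin 6, had a log2 fold change of -7.04 (SE 0.79, adjusted p = 6.58e-05), Il1a did not pass (log2 fold change -0.72, SE 0.92, adjusted p = 0.571), and Il22 had 0 counts in every library. In siAATF replicate 3, where most members peaked, Il6 was at 0, as in the other siAATF libraries, and Il1b was below every siControl library. Within siAATF, however, 6 of the 8 cytokines tested, Il1b and Tnf among them, had their highest level in replicate 3, most of them from few counts.

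Of 12 cytokine and lipopolysaccharide receptors, 3 were called higher (Il6ra, Lifr and Il1rap) and 3 lower (Osmr, Tnfrsf1b and Tlr4), with a median log2 fold change of 0.25. With library size alone the median was -1.58, and none was called higher and 6 lower, and without siAATF replicate 3 the calls were 3 and 5. Il6ra, the interleukin 6 receptor, was at 36.1, 26.5 and 31.2 TMM-normalized CPM in siControl and at 65.5, 86.1 and 104 in siAATF (log2 fold change 1.43, SE 0.37, adjusted p = 0.0112, but -0.41 with library size alone). Lifr, the leukemia inhibitory factor receptor, had a log2 fold change of 2.99 (SE 0.53, adjusted p = 0.000991, but 0.0730 with library size alone, where Il1rap was at 0.295). Osmr, the oncostatin M receptor, had one of -2.97 (SE 0.64, adjusted p = 0.00367). Cd14, the partner of Lbp, was at 200, 183 and 216 in siControl and at 2.45, 1.61 and 107 in siAATF (log2 fold change -2.42, SE 1.13, adjusted p = 0.123, 1.43e-08 without siAATF replicate 3 and 8.31e-16 to 0.227 over its alternatives). Like Saa3, it was below siControl in all siAATF libraries and highest among them in replicate 3.

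Among 17 signal transducers and transcription factors, 4 were called higher and 4 lower (median log2 fold change 0.12). With library size alone the median was -1.73, and 2 were called higher and 11 lower, and without siAATF replicate 3 the calls were 4 and 6. The factors that rose were those that define hepatocytes, Foxa2 (3.44, SE 0.62, adjusted p = 0.00111), Hnf4a (3.27, SE 0.57, adjusted p = 0.000895) and Cebpa (1.96, SE 0.50, adjusted p = 0.00939, but 0.126 after thinning and up to 0.740 with library size alone), and the glucocorticoid receptor Nr3c1 (1.41, SE 0.37, adjusted p = 0.0119, but -0.43 with library size alone), all as log2 fold changes. Cebpd, a C/EBP factor induced in inflammation, was at 50.5, 84.3 and 82.9 TMM-normalized CPM in siControl and at 7.62, 3.02 and 18.2 in siAATF (log2 fold change -2.88, SE 0.56, adjusted p = 0.00188). Jak2 also fell (log2 fold change -2.09, SE 0.36, adjusted p = 0.000867), as did Nfkb1 (log2 fold change -1.85, SE 0.39, adjusted p = 0.00303, but 0.105 after thinning) and Nfkbiz (log2 fold change -1.52, SE 0.43, adjusted p = 0.0163, up to 0.152 over its alternatives, without siControl replicate 3). Stat3 (log2 fold change 1.08, SE 0.46, adjusted p = 0.0958, -0.85 with library size alone) and Cebpb (log2 fold change -0.31, SE 0.50, adjusted p = 0.660) did not pass. Socs3, the feedback inhibitor that STAT3 induces, was looked at after its values were seen. It was at 74.6, 116 and 94.0 in siControl and at 6.73, 18.8 and 106 in siAATF, and only siAATF replicate 3 reached the siControl range.

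Of 8 receptors and partners of acute-phase proteins, 1 was called higher and 3 lower, and with library size alone none was called higher and 3 lower. Cd163, the scavenger receptor of macrophages for haptoglobin bound to hemoglobin, had 0 counts in all siControl libraries and 60, 21 and 106 counts in siAATF, where its level was 2.07 to 5.88 TMM-normalized CPM. A count of 0 allows up to 2.41, 7.23 and 1.67 in siControl replicates 1 to 3, which overlaps that level. Cd163 was the 1 gene called higher and passed the filter through siAATF alone. Neither a fold nor a p is therefore given, and its call is not read as a rise. Fpr2, a receptor for serum amyloid A on myeloid cells, fell (log2 fold change -4.27, SE 0.65, adjusted p = 0.000387), as did Tlr2 (log2 fold change -3.53, SE 0.63, adjusted p = 0.00108) and Hmox1, which degrades heme (log2 fold change -3.56, SE 0.61, adjusted p = 0.000812).

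**Figure D5:**
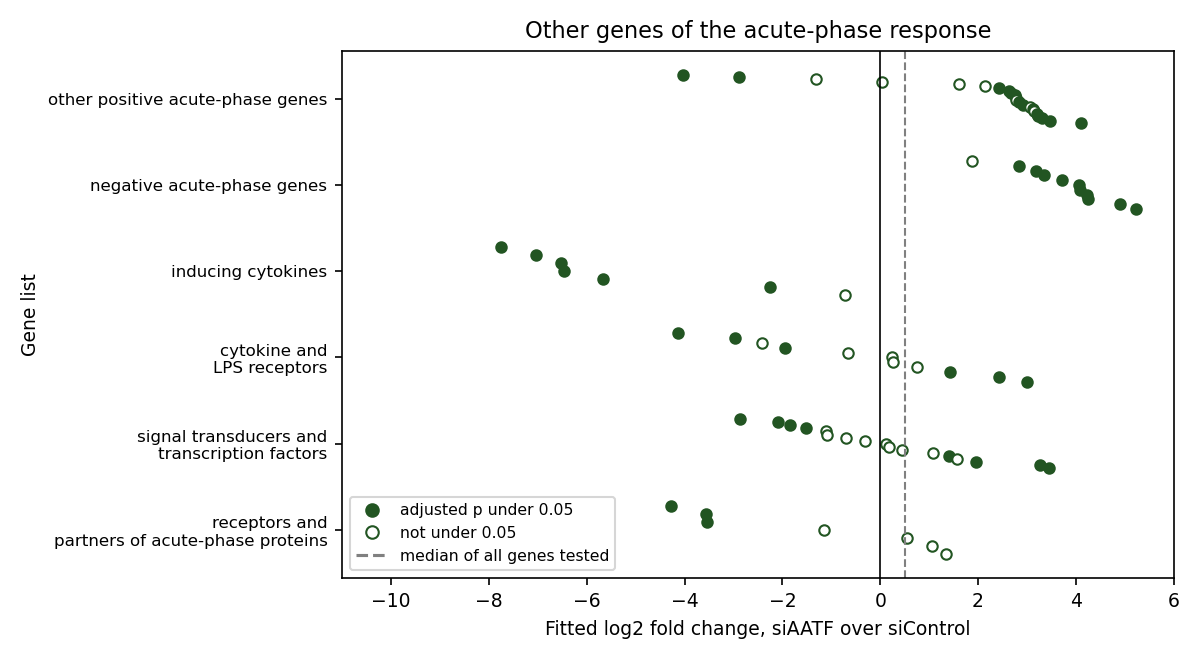
Fitted log2 fold change of siAATF over siControl with TMM scaling for 75 tested genes of the 6 lists, 1 point per gene, filled where the adjusted p was under 0.05, with the median of all genes tested (0.50) as a dashed line and 3 genes with 0 counts in a whole group (Il6, Il22ra1 and Cd163) not drawn. Negative acute-phase genes lie to the right and inducing cytokines to the left, and with library size alone the medians of the last 3 lists turn or stay below 0.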

How the data were processed

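RNA was extracted from liver tissue and made into libraries with the SMART-Seq kit, which amplifies cDNA by PCR without molecular identifiers. The authors used Cutadapt for trimming and STAR 2.7.11 for alignment to a joined human and mouse (GRCm39) reference. Reads with more than a single mapping place or species were dropped, and the authors deposited raw gene counts from featureCounts 2.0.1, without normalization, as a mouse and a human table. How many human reads were counted on mouse genes was not tested. Strand use in counting is not given in the sources used here.

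Of 56884 mouse identifiers, 56323 were named from gencode release 39. Counts were fitted with edgeR 4.0.16 (quasi-likelihood test, limma 3.58.1, R 4.3.3) with TMM scaling, a total of at least 10 counts per gene and the group as the only term, and p-values were Benjamini-Hochberg adjusted over the 18018 genes tested and called under 0.05. Scripts were tested on simulated counts with the depths of these libraries but the same gene make-up in both groups. The difference in make-up between the groups was thus not simulated. Of 183 genes given a log2 change of 3 up or down, 61.7% were recovered, and 9 of 16887 unchanged genes were called. The 10 members and all lists were chosen with earlier results of these data known. Besides the members, Alb, Il6, Il1b, Tnf, Stat3, Cebpb, Cebpd, Hnf4a and the 3 nearest profiles were named, any gene of a list of up to 12, and in longer lists the 4 largest called rises and falls. Shares have 95% Wilson confidence intervals, which cover counting error only. Promoter sequences are from RefSeq. Alternatives included DESeq2 1.42.0 and limma-voom. Python 3.11.15, scipy 1.17.1, Biopython 1.88 and matplotlib 3.10.9 were used. Replicate numbers did not pair the libraries. The planned test of human genes was not run, as the human table lists identifiers without names.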

Additional observations from a re-analysis of the deposited data

How the results depend on the processing

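Without siAATF replicate 3, the log2 ratio of the summed members, siAATF over siControl, was 0.57 in place of 3.24. Over the alternatives that keep all 6 libraries, it was 1.38 to 3.26 with other scalings of the mouse counts and 7.40 with the counts of both species as the total (CPM of all gene counts). With each replicate left out the ratio ran from 0.57 to 3.78, and that of members per Alb count (-1.12) from -2.90 to -0.57. The mouse genes called (5762) numbered 1745 under a filter of 10 counts in each library, 3004 with all libraries thinned to the smallest mouse total, and 3333 to 6088 with each replicate left out, where the 3333 came without siControl replicate 3. Of the calls 55% were higher with TMM, 44.8% with upper-quartile scaling and 9.31% with library size alone. Pathway genes called higher (31) numbered 11 with library size alone and 15 to 37 with each replicate left out. Those called lower (19) numbered 32 with library size alone, 8 under the filter of 10 counts in each library and 14 to 24 with each replicate left out. The cause was not tested, except that the filter and the thinning leave fewer genes or counts by construction.

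Among members and pathway genes described one by one, the log2 fold changes that turned sign were those of Lcn2 (0.71), with library size alone (-1.17), limma-voom (-2.06) and with replicates left out (-2.94 to 1.31), Orm2 (3.75, from -1.23 to 4.35 with replicates left out), Lbp (-0.51), Il6ra (-0.41), Stat3 (-0.85) and Nr3c1 (-0.43), each with library size alone, and Cebpb (-0.999 to 0.039 with replicates left out). Other genes turned from above to below 0 too, among them Aatf, Clec4f, Marco and Vsig4 with library size alone (-0.92, -0.21, -0.52 and -1.08) and Mt2 without siAATF replicate 3 (-0.24). Saa1, Saa2, Saa3, Hp, Orm1, Apcs and Itih4 kept their sign in all alternatives run.

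Same-numbered libraries of the groups deviated together weakly or not at all (r = 0.145, 0.212 and -0.023 for numbers 1 to 3), so the numbers were not taken as pairs. With the replicate number as a block, 6766 mouse genes were called, with 32 pathway genes higher and 22 lower, and Lcn2 was at -2.02 and Orm2 at -0.14. The tests of human genes and their alternatives were not run. Depth limits the siControl libraries most, where 3 mouse counts stand for 1.67 to 7.23 TMM-normalized CPM.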
